A study of Mus musculus with 6 samples.

Results

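The genes described here are the collagens, the matrix metalloproteases (MMPs), the ADAM and ADAMTS proteases and a few partners, as measured in the epidermis of newborn Hnrnpu-knockout mice. Members were taken from the deposited table by gene symbol: every symbol starting with Col or Mmp and then a digit or starting with Adam, plus Lox, Loxl1 to Loxl4, Nid1, Nid2 and Fn1, with Col17a1 left out. This found 57 of the 12894 genes in the table. Of the genes named singly by this rule, Loxl2, Nid1 and Fn1 were among them, and the others were not analysed here. Col4a3bp was matched by its name only, since it encodes a ceramide transfer protein and not a collagen.

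The samples were 6 epidermal sheets, separated from the dermis of C57BL/6 mice at postnatal day 0 and profiled by bulk RNA sequencing. Of these, 3 came from animals labelled Hnrnpu knockout and 3 from animals labelled control. The knockout was made with the loxP-Cre system, and the labels name neither the Cre driver nor the deleted part of the gene. By genotype label, control 1 was wild type and controls 2 and 3 were "Heterogenous", a word the labels do not explain. Hnrnpu encodes a nuclear protein that binds RNA and chromatin.

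Collagens are triple-helical proteins that form the fibrils of the dermis, the sheet-like network of basement membranes and the anchoring fibrils that tie the epidermis down. In skin the fibrillar collagens are made mainly by dermal fibroblasts, while keratinocytes make basement membrane and anchoring collagens. MMPs are zinc proteases that cleave collagens and other matrix proteins, ADAMs are membrane-bound relatives that release growth factors and cytokines from the cell surface, and ADAMTS enzymes are secreted proteases that trim procollagens or cleave proteoglycans such as versican.

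Values are normalized read counts per gene, and a log2 difference is the knockout mean minus the control mean of log2(value + 1), with its moderated standard error (SE). In the table, 1 read was worth 0.935, 1.70 and 1.11 normalized counts in knockouts 1 to 3, and 0.755, 0.885 and 0.817 in controls 1 to 3. Estimated depths were 6460000 to 8770000 reads in knockouts and 8280000 to 9120000 in controls. Hnrnpu itself was at 1565, 1342 and 1036 in knockouts, against 1450, 1318 and 1160 in controls, a log2 difference of −0.01 ± 0.20 (limma, adjusted p = 0.976). A gene-level count does not show whether a part of the transcript was deleted, so this is no check of the labels. The libraries labelled knockout 2 and 3 had 5656 and 4758 normalized counts of Xist, against 1.87 in knockout 1 and at most 3.27 in the controls, so the groups differ in their mix of sexes. Keratinocyte markers summed to between 652913 and 891185 in knockouts and between 831478 and 902326 in controls, and all 12 were present. Of the 12, 3 were called higher and 0 lower, beside 17.7% and 15.9% of all tested genes. Krt14 rose most, by a log2 difference of 3.21. With library totals set equal, 3 were higher and 3 lower. Epidermis is the labelled tissue. All 8 melanocyte markers rose in the knockouts, where they summed to between 3104 and 4978, against 478 to 711 in controls. Schwann cell markers, of which 3 of 4 tested rose, summed to between 497 and 1336 in knockouts and between 239 and 457 in controls. Hair follicle markers, of which 2 of 4 rose, summed to between 580 and 2588 in knockouts and between 172 and 277 in controls. The part of these cell types in the results was not tested. Of the other lists, 7 of 15 dermal fibroblast markers, 1 of 9 endothelial, 8 of 9 macrophage and Langerhans cell, 4 of 9 neutrophil and 3 of 6 T cell markers had a row in the table, as had 5 of 5 Schwann cell, 4 of 7 hair follicle and 1 of 7 cartilage and bone markers. None of the mural, skeletal muscle, mast cell or adipocyte markers did.

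The set split in both directions. Of the 56 members tested, 16 were higher and 8 lower in the knockouts at an adjusted p under 0.05 (limma, Benjamini-Hochberg over all 12872 tested genes), and the remaining 32 did not pass. This is 28.6% higher and 14.3% lower, beside a background of 17.7% and 15.9% of all tested genes, and 42.9% in either direction beside 33.6%. All 24 also changed at least 2-fold, which 12.0% of all genes did upward and 11.8% downward. The median log2 difference was 0.79 over the members and −0.02 over all tested genes. With library totals set equal, the medians were 0.45 over the members and −0.36 over all genes, and the split was 13 higher and 11 lower. Over the settings run, the member median lay between 0.32, with a filter above 10 in at least 3 libraries, and 1.18, without knockout 3. The 3 knockout libraries lay wholly above the controls for 22 members and wholly below for 12, against 25.8% and 25.0% of all genes (50.8% in either direction). Collagens made up 9 of the 16 rises and 3 of the 8 falls. The MMPs, ADAMs and ADAMTS enzymes made up 5 and 4. In a fit with adjacent animal numbers as a block, 10 of 25 collagens were higher and 6 lower, beside 22.9% and 22.0% of all tested genes.

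**Figure D1:**
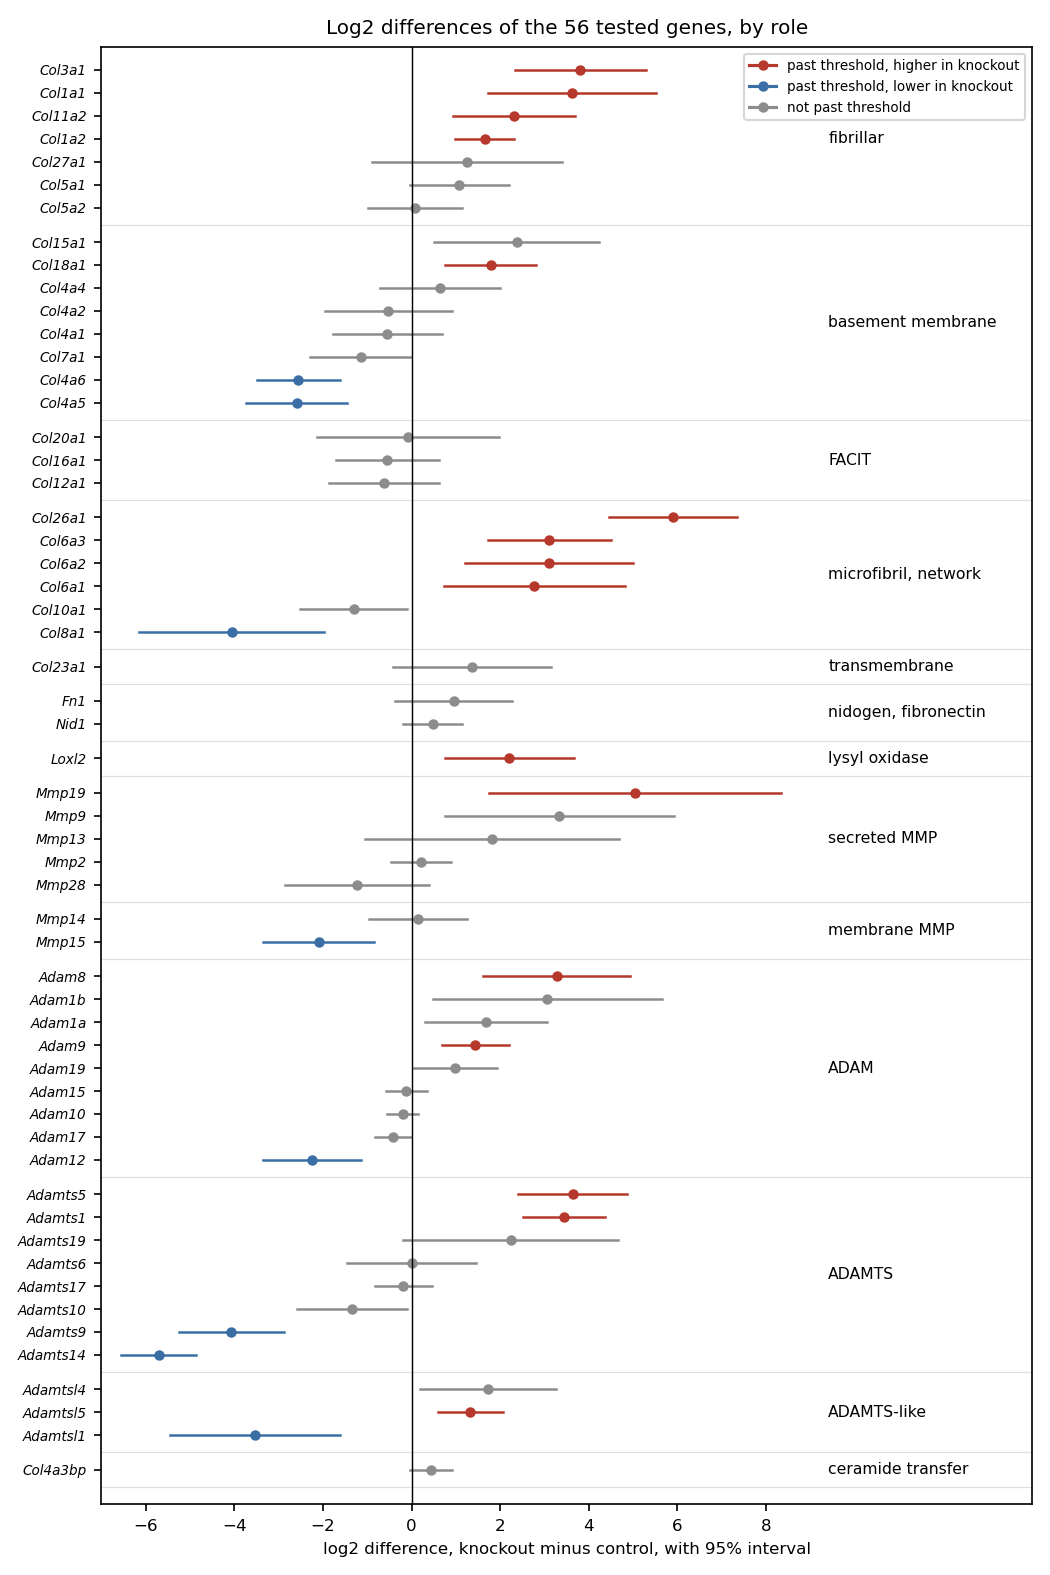
Log2 difference, knockout minus control, of each of the 56 tested members (horizontal axis, log2 of normalized count + 1), grouped by role down the page. Points are limma estimates and bars 95% intervals from 3 libraries a group. Fibrillar and microfibril collagens lie mostly to the right, Col4a5 and Col4a6 to the left, and the ADAMTS genes on both sides, with Adamts14 lowest at −5.71 and Col26a1 highest at 5.90.

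Several collagens of dermal fibrils were higher in the knockouts. Of the 7 fibrillar genes measured, Col3a1, Col1a1, Col11a2 and Col1a2 rose and Col5a1, Col5a2 and Col27a1 did not pass the test. None was called lower, and the background was 17.7% higher and 15.9% lower among all tested genes. The median log2 difference of the 7 was 1.65. Col3a1 (ENSMUSG00000026043), the chain of the thin fibrils of young skin, had 122, 182 and 146 normalized counts in knockouts, against 3.02, 29.2 and 8.99 in controls. Each knockout stood well above each control, and control 2 was the highest control. That was a log2 difference of 3.81 ± 0.65 (SE, n = 3 each; limma, adjusted p = 0.0035). Col1a1 (ENSMUSG00000001506), the main chain of the thick fibrils, had 86.0, 192 and 137.5 in knockouts and 1.51, 31.0 and 14.7 in controls, a log2 difference of 3.62 ± 0.83 (limma, adjusted p = 0.0124). Its partner chain Col1a2 (ENSMUSG00000029661) had 92.5, 61.2 and 75.4 in knockouts and 20.4, 24.8 and 25.3 in controls, a log2 difference of 1.65 ± 0.30 (limma, adjusted p = 0.0045). The groups did not overlap for either chain, and the Col1a2 controls lay closer together than those of Col1a1. Col11a2 (ENSMUSG00000024330), a chain of cartilage fibrils, was low, with 34.6, 20.4 and 18.9 in knockouts and 6.80, 3.54 and 2.45 in controls (2.32 ± 0.60; limma, adjusted p = 0.020).

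These rises differ in how far they rest on single libraries. The Col1a1 log2 difference was 2.56 without control 1 and 4.40 without control 2, and that of Col3a1 3.10 and 4.56, all past the threshold. Col11a2 did not pass without control 2, control 3 or knockout 1 (limma, adjusted p = 0.0564, 0.0558 and 0.0679). Col1a2 passed in all 16 other settings run. Col5a1, a chain that sets the width of fibrils, had 228, 97.0 and 140 in knockouts and 112, 89.4 and 31.9 in controls (1.08 ± 0.49; limma, adjusted p = 0.119), and passed only with adjacent animal numbers as a block (adjusted p = 0.0423). Col5a2 was at 0.07 ± 0.46, though it neighbours Col3a1 on chromosome 1.

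Of the 15 fibroblast markers, 3 collagens and 4 other genes had a row. The 4 others split: Postn fell, Vim rose, and Dcn and Thy1 did not pass. This is 1 of 4 higher and 1 lower, beside 17.7% and 15.9% of all tested genes. Dcn, Thy1, Postn and Vim summed to 1164, 2333 and 765 in knockouts and to 3183, 1748 and 1569 in controls. Postn held most of that sum in each control, so the control sums rest largely on that gene. Dcn, decorin, which coats collagen fibrils, had 215, 61.2 and 80.9 in knockouts and 366, 160 and 87.5 in controls and did not pass (−0.75 ± 0.58; limma, adjusted p = 0.341). Postn, periostin, a matrix protein of the skin's fibroblasts, fell to 176, 44.2 and 68.7 in knockouts, against 2243, 1215 and 1171 in controls (−4.16 ± 0.48; limma, adjusted p = 0.00064). Vim, an intermediate filament protein of fibroblasts, leukocytes and melanocytes, was just past the threshold (1.41 ± 0.47; limma, adjusted p = 0.0477), and lost it without any 1 library other than knockout 3 (0.0553 to 0.139) and with library totals set equal (0.0746). The other 8, Pdgfra and Lum among them, were not analysed here. In bulk samples, more cells of a type and more RNA per cell cannot be told apart, and the part of residual dermal cells in these values was not tested.

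The collagens of the basement membrane zone moved in opposite directions. Of 8 measured, Col18a1 rose, Col4a5 and Col4a6 fell, and Col4a1, Col4a2, Col4a4, Col7a1 and Col15a1 did not pass. This is 12.5% higher and 25.0% lower, beside a background of 17.7% and 15.9% of all tested genes. Col18a1 (ENSMUSG00000001435), the source of endostatin, had 2404, 840 and 1056 normalized counts in knockouts and 593, 396 and 219 in controls. Every knockout was above every control, with knockout 1 far above the rest. This gave a log2 difference of 1.79 ± 0.45 (limma, adjusted p = 0.0177), and the call was lost without control 3 (1.41, adjusted p = 0.0580) and with library totals set equal (1.45, adjusted p = 0.0616). Its close relative Col15a1 was low, at 30.8, 6.81 and 18.9 in knockouts and 1.51, 4.43 and 1.63 in controls, and stopped just short (2.37 ± 0.82; limma, adjusted p = 0.0533). It passed without knockout 2 (adjusted p = 0.0227).

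Col4a5 and Col4a6 encode chains that join in 1 of the network types of basement membranes, and both fell. Col4a5 (ENSMUSG00000031274) had 90.6, 18.7 and 56.6 normalized counts in knockouts and 342, 282 and 235 in controls. Col4a6 (ENSMUSG00000031273) had 29.9, 15.3 and 17.7 in knockouts and 179, 142 and 73.6 in controls. For both genes each knockout was below each control, and knockout 2 was the lowest library. The log2 differences were −2.59 ± 0.50 and −2.55 ± 0.41 (limma, adjusted p = 0.0059 and 0.0026). The Col4a5 value was −1.97 without knockout 2 and still passed. The commoner chains Col4a1, at 328, 90.2 and 128 in knockouts and 350, 297 and 114 in controls, and Col4a2 did not pass (−0.54 ± 0.54 and −0.52 ± 0.63). Their intervals reach from −1.78 to 0.69 and from −1.95 to 0.90, and the difference between the gene pairs was not tested. Both X-linked genes lie on a chromosome whose copy number differs with sex. Knockout 1, the knockout with little Xist, set alone against the controls gave −1.63 for Col4a5 and −2.01 for Col4a6. These values rest on 1 knockout library, and the part of sex in the falls was not tested.

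The 2 falling chains lie head to head on the X chromosome, 1343 bases between their starts, and are read in opposite directions. Their promoters are shown because the pair moved together. Each run holds the 250 bases before the start in lower case and the 50 bases after it in capitals, from RefSeq on GRCm38.p6, another build than the authors' mm39.
Col4a6, chrX:141474027-141474326, minus strand: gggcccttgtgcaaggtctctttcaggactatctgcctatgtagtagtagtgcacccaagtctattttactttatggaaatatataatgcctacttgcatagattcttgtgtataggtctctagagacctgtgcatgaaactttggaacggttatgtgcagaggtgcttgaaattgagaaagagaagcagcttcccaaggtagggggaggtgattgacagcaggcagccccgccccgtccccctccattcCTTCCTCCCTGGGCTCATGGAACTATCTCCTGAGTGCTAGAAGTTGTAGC
Col4a5, chrX:141475169-141475468, plus strand: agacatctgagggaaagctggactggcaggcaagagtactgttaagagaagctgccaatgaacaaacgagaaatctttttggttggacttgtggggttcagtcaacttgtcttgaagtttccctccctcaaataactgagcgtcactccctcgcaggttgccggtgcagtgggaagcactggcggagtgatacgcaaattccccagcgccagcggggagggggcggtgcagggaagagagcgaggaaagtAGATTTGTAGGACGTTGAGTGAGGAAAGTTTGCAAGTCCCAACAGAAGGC
The Col4a6 window was 48.3% G or C with 3 CpG and that of Col4a5 52.7% with 11, against medians of 52.7% and 7 over all 32851 RefSeq promoters of this length.

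Col7a1, the anchoring fibril collagen that keratinocytes secrete, was lower in most knockouts but did not pass. It had 507, 174 and 198 normalized counts in knockouts and 1057, 552 and 330 in controls. The groups overlapped only through knockout 1 and control 3, whose animal numbers are not adjacent. The log2 difference was −1.15 ± 0.50 (limma, adjusted p = 0.104). Within the 3 pairs of adjacent animal numbers it was −1.06, −1.66 and −0.73, and the fit with the pairs as a block called it (limma, adjusted p = 0.0040), as did the fit without knockout 1 (−1.63, adjusted p = 0.0323). Of the 3 fibril-associated collagens, Col12a1, which bridges fibrils, had 550, 219 and 153 in knockouts and 770, 414 and 215 in controls (−0.63 ± 0.55; limma, adjusted p = 0.394, and 0.0203 with the block). Col16a1 (−0.54) and Col20a1 (−0.08) passed in neither fit.

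The microfibril chains of collagen VI rose together. Col6a3 (ENSMUSG00000048126), the longest of the 3 chains, had 193, 134 and 94.3 normalized counts in knockouts and 6.80, 42.5 and 10.6 in controls, a log2 difference of 3.10 ± 0.61 (limma, adjusted p = 0.0064). Col6a2 (ENSMUSG00000020241) had 53.3, 80.0 and 31.0 in knockouts and 5.29, 18.6 and 0.817 in controls (3.10 ± 0.83; limma, adjusted p = 0.0226). Col6a1 (ENSMUSG00000001119), its neighbour on chromosome 10, had 62.6, 39.1 and 32.2 in knockouts and 4.53, 25.7 and 0.817 in controls (2.77 ± 0.90; limma, adjusted p = 0.0436). No knockout overlapped a control for any chain, and control 2 was the highest control for each, as it was for Col1a1 and Col3a1. Control 3 held 1 read of each of the smaller chains. Without control 2 the log2 differences of Col6a3, Col6a2 and Col6a1 were 3.83, 3.94 and 3.79, and without control 3 those of Col6a2 and Col6a1 were 2.23 and 1.85. Col6a1 passed without control 2 alone and was lost without any other library (limma, adjusted p = 0.0608 to 0.117), and Col6a2 was lost without control 1, knockout 1 or knockout 2 (adjusted p = 0.0564, 0.0585 and 0.0708).

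**Figure D2:**
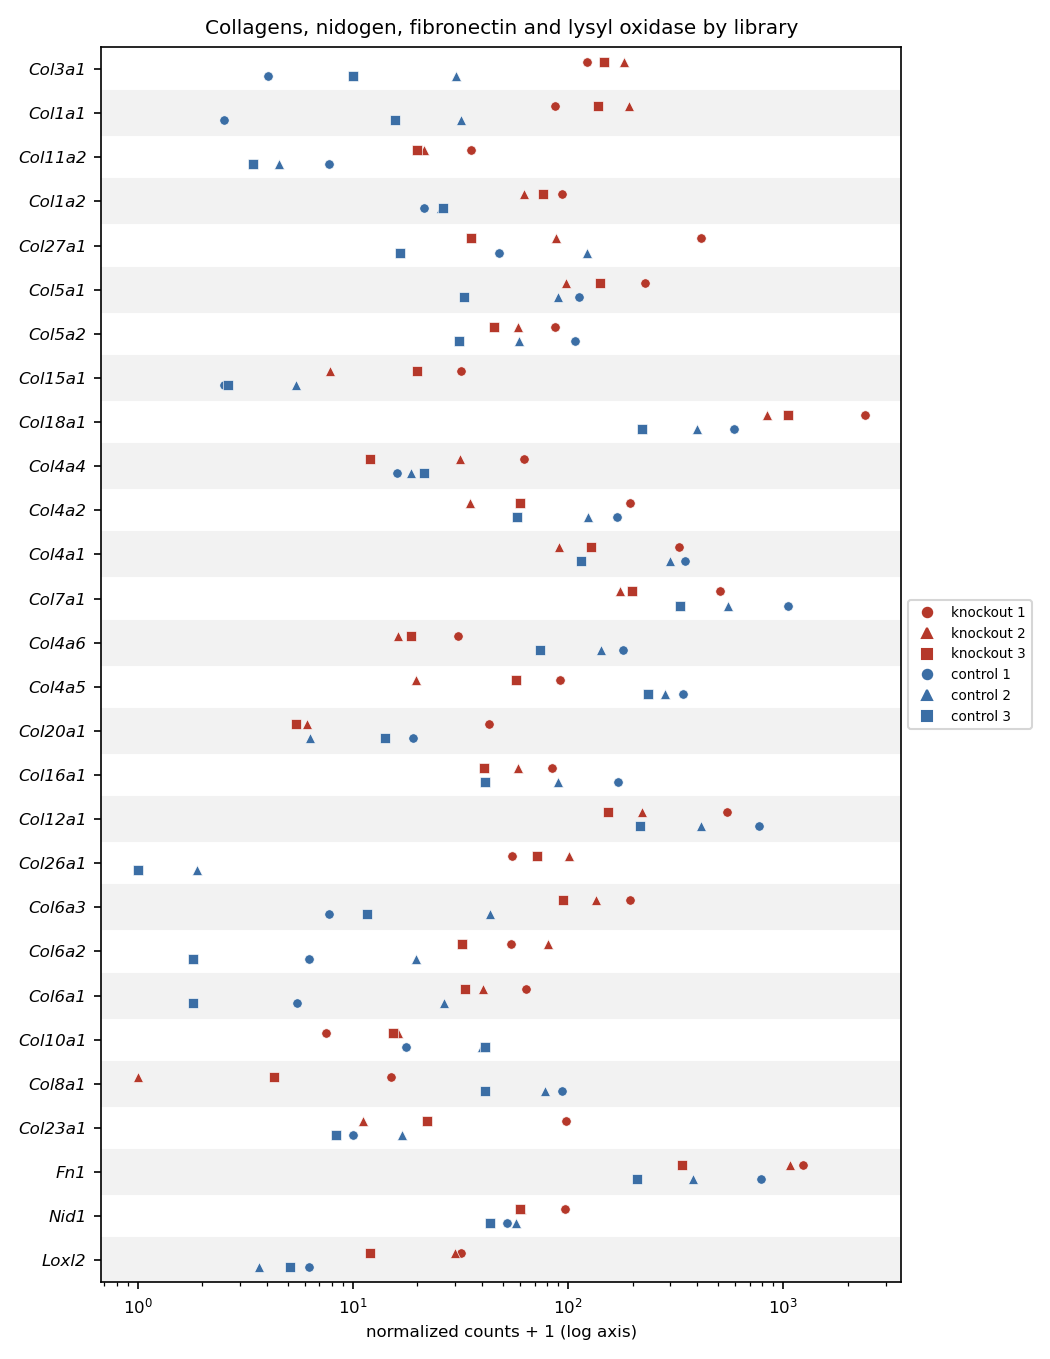
Normalized counts + 1 (log axis) of the collagens, nidogen, fibronectin and lysyl oxidase genes, 1 row a gene, knockouts in red above controls in blue. The 3 knockouts of Col6a3 lie between 94.3 and 193 and its controls between 6.80 and 42.5, while the knockouts of Col4a6 lie between 15.3 and 29.9, below its controls at 73.6 to 179.

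Col26a1 and Col8a1 stood at the 2 ends of the collagens. Col26a1 (ENSMUSG00000004415), a short collagen with an EMI domain, had 54.2, 100.4 and 71.0 normalized counts in knockouts and 0, 0.885 and 0 in controls. It was all but undetected in control epidermis: 58, 59 and 64 estimated reads in knockouts stood against a single read in the 3 controls. The ratio of reads at equal depth was 260, with an exact interval of 46.1 to 10326 that covers counting error only. That was a log2 difference of 5.90 ± 0.63 (limma, adjusted p = 0.0005) and passed in all other settings. Col8a1 (ENSMUSG00000068196), a network collagen of vessel walls and the cornea, had 14, 0 and 3.33 in knockouts and 92.9, 77.0 and 40.1 in controls (−4.06 ± 0.91; limma, adjusted p = 0.0114). Knockout 2 was at 0, and the value was −3.06 without it and −5.01 without knockout 1, both past the threshold. Col10a1, the network collagen of growth cartilage, lay at 6.54, 15.3 and 14.4 in knockouts and 16.6, 39.0 and 40.1 in controls (−1.31 ± 0.53; limma, adjusted p = 0.0884, and 0.0326 with the block). The 1 transmembrane collagen, Col23a1, did not pass (1.36 ± 0.78).

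Of the linking proteins, fibronectin was among the most abundant members. Fn1 had 1240, 1082 and 338 normalized counts in knockouts and 791, 382 and 209 in controls. Its groups overlapped through knockout 3, and each knockout was above the control with the adjacent animal number. This gave a log2 difference of 0.95 ± 0.58 (limma, adjusted p = 0.228), and 0.0086 was the adjusted p with the block. Without knockout 3 it was 1.54 (adjusted p = 0.0397). Nid1, nidogen, which joins laminin to collagen IV, did not pass (0.47 ± 0.29). Loxl2 (ENSMUSG00000034205), a lysyl oxidase that cross-links collagen, had 30.8, 28.9 and 11.1 in knockouts and 5.29, 2.66 and 4.09 in controls (2.21 ± 0.64; limma, adjusted p = 0.0301). Its groups did not overlap, but the call was lost without any library other than knockout 3 (adjusted p = 0.0517 to 0.0918).

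The spread within groups followed the library in the structural genes. Among the 27 collagens, nidogen and fibronectin, knockout 1 was the highest knockout for 22 and control 3 the lowest control for 18. Over all members tested, knockout 1 was highest for 58.9%, and over all tested genes for 30.0%. Control 3 was lowest for 58.9% of members and 32.5% of all genes. The part of tissue separation in this spread was not tested.

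Of the 6 secreted MMPs, Mmp8, Mmp9, Mmp13 and Mmp19 were low in controls and highest in knockout 2. Mmp2 was highest in knockout 3 and Mmp28 in control 1. Mmp19 (ENSMUSG00000025355), an MMP known from wounded and inflamed skin, had 21.9, 697 and 8.26 normalized counts in knockouts and 0, 1.11 and 0.995 in controls. All 3 knockouts were above the controls, but knockout 2 was 46.2 times the mean of the other two. Estimated reads were 23, 409 and 7 in knockouts and 0, 1 and 1 in controls, a ratio of 315 at equal depth. Its exact interval of 86.8 to 2612 covers counting error only. The reads were pooled over animals, and 409 of the 439 knockout reads lay in knockout 2. The log2 difference was 5.03 ± 1.44 (limma, adjusted p = 0.0287), with a limma interval, which includes the spread between libraries, of 1.74 to 8.33. It was 3.17 without knockout 2 (adjusted p = 0.0481), 5.64 without knockout 1 and 6.29 without knockout 3, and leaving out control 1, 2 or 3 ended the call (adjusted p = 0.0781, 0.0635 and 0.0633) and with a pseudocount of 5 (0.0617). Mmp19 shares exon sequence with Tmem198b on the other strand, and the strand setting of the counting is not known.

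The other inducible MMPs were highest in the same library. Mmp9, a gelatinase of neutrophils, macrophages and migrating keratinocytes, had 20.6, 119 and 4.44 normalized counts in knockouts and 3.02, 0.885 and 0.817 in controls. The Mmp9 groups did not overlap in normalized counts (3.33 ± 1.13). Estimated reads were 22, 70 and 4 in knockouts and 4, 1 and 1 in controls, so knockout 3 and control 1 held the same number. Mmp9 passed with the block and not without it (limma, adjusted p = 0.0303 and 0.0508), and also without knockout 3 (4.41, adjusted p = 0.0125). Mmp13, a collagenase, had 0.935, 66.4 and 14.4 in knockouts and 1.51, 2.66 and 4.09 in controls, so that knockout 1 lay below the controls (1.81 ± 1.25; limma, adjusted p = 0.286, and 0.0339 without knockout 1). Mmp8, the neutrophil collagenase, had 0, 228 and 0 in knockouts and 0, 0 and 0.817 in controls. All its 134 knockout reads lay in knockout 2, and it did not reach the filter for testing.

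Markers of neutrophils were high in that library too. Mmp8, Mmp9, Mmp13 and Mmp19 summed to 43.4, 1110 and 27.1 normalized counts in knockouts and 4.53, 4.65 and 6.72 in controls. These 4 are the secreted MMPs with their highest value in knockout 2, so a peak of their sum there follows from the choice. All 6 secreted MMPs, Mmp2 and Mmp28 included, summed to 194, 1264 and 263 in knockouts and 149, 214 and 163 in controls. The 4 neutrophil markers in the table, S100a8, S100a9, Cxcr2 and Itgam, summed to 757, 8760 and 245 in knockouts and 85.3, 98.3 and 101 in controls, and stressed keratinocytes also express the first pair. Cxcr2, the chemokine receptor of neutrophils, had 25.2, 349 and 11.1 in knockouts and 1.51, 2.66 and 1.63 in controls. The 8 macrophage and Langerhans cell markers summed to 233, 1148 and 379 in knockouts and 614, 533 and 338 in controls, and its members split: C1qa (−1.20 ± 0.37) and Csf1r (−1.13 ± 0.37) fell, with limma adjusted p of 0.0382 and 0.0438, while Cd68 (0.96 ± 0.32) and Lyz2 (1.34 ± 0.43) rose, with 0.0476 and 0.0429. Each of these 4 calls was lost without any 1 of at least 5 of the 6 libraries, and those of Cd68 and Lyz2 with library totals set equal (0.145 and 0.107). The 3 T cell markers in the table summed to 79.4, 185 and 69.9 in knockouts and 175, 189 and 114 in controls. Of them Cd3e, a T cell receptor subunit, fell (−3.06 ± 0.71; limma, adjusted p = 0.0128), and it did not pass without control 2 (0.0889). The part of leukocytes in the MMP values was not tested.

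**Figure D3:**
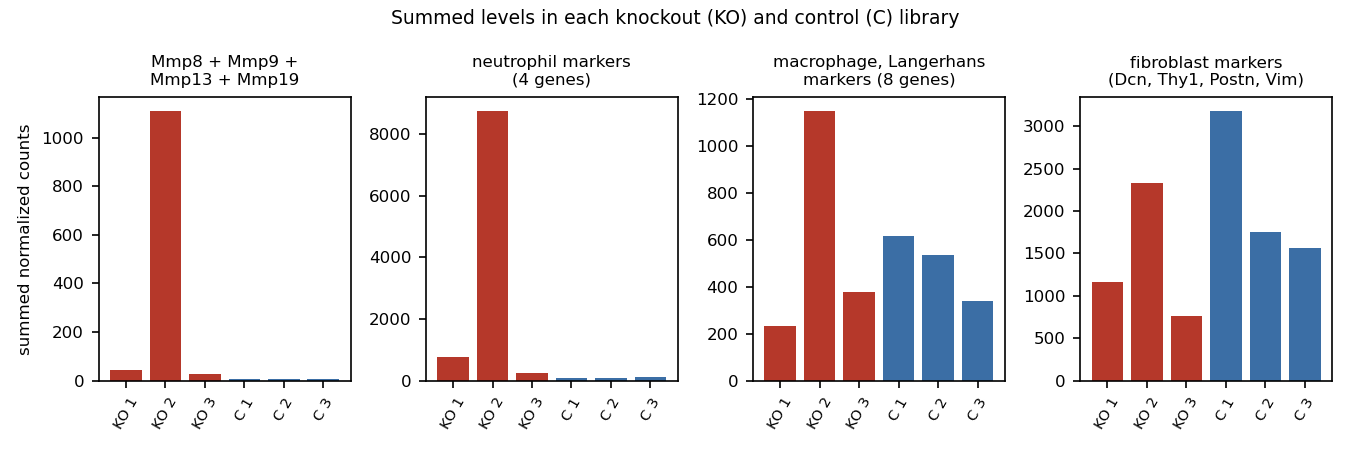
Summed normalized counts in each library (KO, knockout; C, control), 1 bar a library, from 0. The 4 MMPs shown, chosen as the secreted MMPs highest in knockout 2, reach 1110 there and at most 43.4 in any other library. The neutrophil markers reach 8760 in knockout 2. The fibroblast markers that are not collagens are highest in control 1, at 3183, most of it Postn.

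Mmp15 fell, and Mmp2 and Mmp14 did not pass. Mmp2, gelatinase A, had 133, 151 and 229 normalized counts in knockouts and 106, 197 and 142 in controls (0.21 ± 0.30; limma, adjusted p = 0.615). Mmp14, the membrane-type MMP that activates Mmp2, had 461, 230 and 154 in knockouts and 381, 263 and 122 in controls (0.14 ± 0.49; adjusted p = 0.844). Both pairs of groups overlapped, and the intervals were −0.48 to 0.89 and −0.97 to 1.25 on the log2 scale, the second of which reaches past 2-fold. Mmp15 (ENSMUSG00000031790), another membrane-type MMP, fell to 36.4, 6.81 and 23.3 in knockouts, against 96.6, 84.1 and 65.4 in controls (−2.09 ± 0.55; limma, adjusted p = 0.0206). Knockout 2 was its lowest library, and the value was −1.44 without it. Leaving out control 1 or control 2 ended the call (adjusted p = 0.0722 and 0.0667). Mmp28, epilysin, an MMP of keratinocytes, was at −1.23 ± 0.71.

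The sheddases Adam10 and Adam17 differed little between the groups and had the smallest standard errors of the 56 members tested. Adam10, which cleaves Notch and cadherins, had 802, 857 and 842 normalized counts in knockouts and 999, 932 and 942 in controls. Adam17, which releases EGF receptor ligands and TNF, had 426, 444 and 540 in knockouts and 583, 587 and 717 in controls. For both, each knockout was below each control, by a small margin. The log2 differences were −0.20 ± 0.15 and −0.42 ± 0.18 (limma, adjusted p = 0.328 and 0.106). With library totals set equal both were called lower (−0.54 and −0.76; adjusted p = 0.0398 and 0.0262), and Adam17 was also called lower with quantile normalization (−0.56, adjusted p = 0.0395) and with the block (−0.42, adjusted p = 0.0463). Adam15 had 695, 899 and 858 in knockouts and 716, 1075 and 891 in controls (−0.12 ± 0.20; limma, adjusted p = 0.679).

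Of the 9 ADAM genes, 2 rose and 1 fell, shares near the background of 17.7% higher and 15.9% lower among all tested genes. Adam8 (ENSMUSG00000025473), a sheddase of leukocytes and activated cells, had 345, 1210 and 151 normalized counts in knockouts and 67.2, 51.4 and 18.8 in controls. The groups did not overlap and knockout 2 was again highest. That was a log2 difference of 3.27 ± 0.73 (limma, adjusted p = 0.0108), 2.47 without knockout 2 and 3.97 without knockout 3. Adam9 (ENSMUSG00000031555), a sheddase also found in keratinocytes, had 533, 926 and 348 in knockouts and 214, 228 and 174 in controls (1.44 ± 0.33; limma, adjusted p = 0.0125). Adam12 (ENSMUSG00000054555), meltrin alpha, known from muscle and mesenchyme, fell to 9.35, 11.9 and 23.3 in knockouts, against 78.9, 39.8 and 107 in controls (−2.25 ± 0.48; limma, adjusted p = 0.0093). All 3 passed in every other setting run. Adam19 had 245, 303 and 140 in knockouts and 196, 97.4 and 69.5 in controls (0.98 ± 0.42; limma, adjusted p = 0.0997), and passed with the block (0.0198), without control 1 (0.0352) and without knockout 3 (0.0418). Adam1a (1.68 ± 0.60) and Adam1b (3.06 ± 1.13), which encode sperm fertilin chains and lie side by side, passed only in some settings, among them the fit without knockout 3 (limma, adjusted p = 0.0087 and 0.0131), and reads could be split between such near copies. Adam1a also shares exon bases with Mapkapk5 and Gm42878 on the same strand and with Tmem116 on the other. The part of these genes in its values was not tested.

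**Figure D4:**
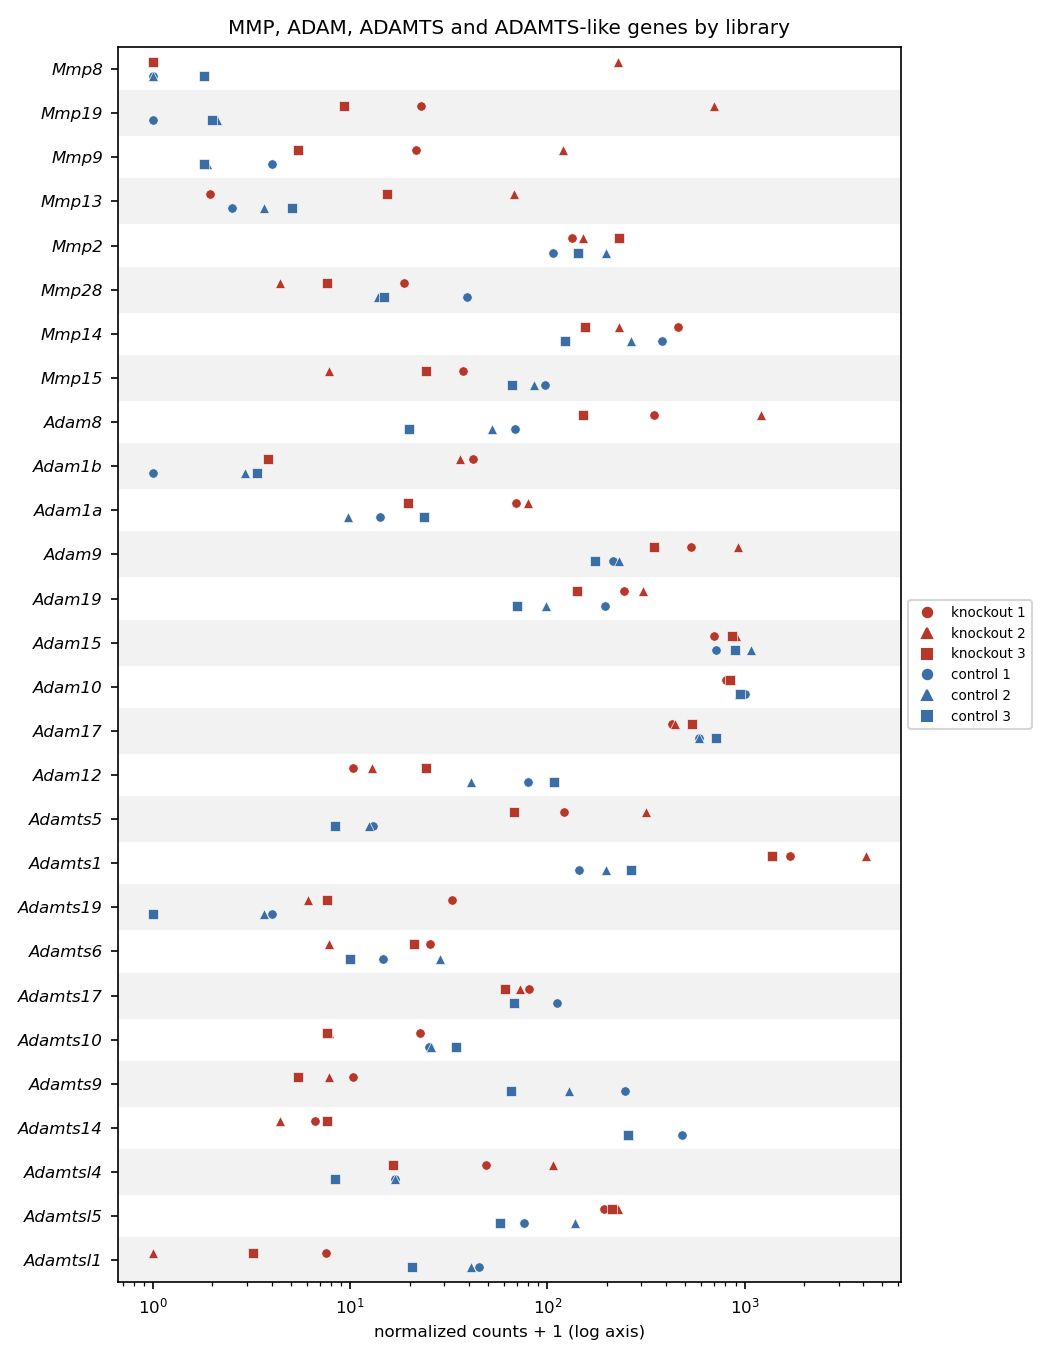
Normalized counts + 1 (log axis) of the MMP, ADAM, ADAMTS and ADAMTS-like genes, 1 row a gene, knockouts in red above controls in blue. Adam10 lies between 802 and 999 in all 6 libraries. Adamts1 lies at 1371 to 4114 in knockouts and 143 to 263 in controls, and Adamts14 at 3.4 to 6.65 in knockouts and 254 to 479 in controls.

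The ADAMTS family held large changes in both directions, with 2 of 8 genes higher and 2 lower, beside a background of 17.7% and 15.9%. Adamts1 (ENSMUSG00000022893), a versican- and aggrecan-cleaving enzyme known to be induced in inflammation, had 1707, 4114 and 1371 normalized counts in knockouts and 143, 198 and 263 in controls. The lowest knockout stood far above the highest control. This gave a log2 difference of 3.44 ± 0.40 (limma, adjusted p = 0.0007). Its neighbour on chromosome 16, Adamts5 (ENSMUSG00000022894), the main aggrecan-cleaving enzyme of cartilage, had 121, 316 and 66.5 in knockouts and 12.1, 11.5 and 7.36 in controls (3.63 ± 0.54; limma, adjusted p = 0.0021, and 3.03 without knockout 2). Both enzymes were highest in knockout 2, at 2.67 and 3.38 times the mean of the other knockouts.

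Adamts14 and Adamts9 were the 2 that fell. Adamts14 (ENSMUSG00000059901), which removes the N-propeptide of fibrillar procollagens, had 5.61, 3.4 and 6.65 normalized counts in knockouts and 479, 259 and 254 in controls. This is a few reads in each knockout library. The log2 difference was −5.71 ± 0.37 (limma, adjusted p = 6.27e-05). Adamts9 (ENSMUSG00000030022), another versican-cleaving enzyme, had 9.35, 6.81 and 4.44 in knockouts and 245, 128 and 64.6 in controls (−4.07 ± 0.52; limma, adjusted p = 0.0010). The groups overlapped for neither gene, and all 4 ADAMTS calls held in every other setting run. Adamts6 (−0.001 ± 0.63), Adamts10 (−1.35 ± 0.55), Adamts17 (−0.18 ± 0.28) and Adamts19 (2.23 ± 1.07) did not pass, with Adamts10 called lower only without knockout 1 (limma, adjusted p = 0.0268).

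Per kilobase of merged exons, the order of the members shifted with these changes. In controls the highest mean levels were those of Adam10, Adam15 and Adam17, at 195, 145 and 87.9 normalized counts per kilobase, with Adamts14 in place 5 at 63.7 and Adamts1 in place 13 at 38.0. In knockouts Adamts1 came first at 452 per kilobase, followed by Col18a1 at 204 and Adam10 at 170, and Adamts14 was in place 54 at 1.0. Col1a1 and Col3a1, though raised, reached 21.1 and 15.3 per kilobase in knockouts, against 2.40 and 1.40 in controls.

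The ADAMTS-like proteins, which lack the protease domain and bind fibrillin microfibrils or other matrix, split as well. Adamtsl5 (ENSMUSG00000043822) had 192, 228 and 212 normalized counts in knockouts and 74.8, 136 and 56.4 in controls (1.32 ± 0.32; limma, adjusted p = 0.0149). It was lost without control 1 (adjusted p = 0.0533) and with library totals set equal (0.0502). Adamtsl1 (ENSMUSG00000066113) fell to 6.54, 0 and 2.22 in knockouts, against 43.8, 39.8 and 19.6 in controls (−3.53 ± 0.84; limma, adjusted p = 0.0142). It was −2.77 without knockout 2 and −4.22 without knockout 1, and leaving out control 1 (adjusted p = 0.0630) or control 2 (0.0676) ended the call. Adamtsl4 lay at 47.7, 105 and 15.5 in knockouts and 15.9, 15.9 and 7.36 in controls (1.72 ± 0.68; limma, adjusted p = 0.0799), and passed with the block (0.0165) and without knockout 3 (0.0117). Col4a3bp, the ceramide transfer protein, had 632, 970 and 632 in knockouts and 516, 556 and 541 in controls (0.44 ± 0.21; limma, adjusted p = 0.133).

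The fit with adjacent animal numbers as a block called 21 members higher and 12 lower, beside 22.9% and 22.0% of all genes. It added 9 members to the calls and lost none. Of these, Mmp9, Adamtsl4, Col5a1, Adam19 and Fn1 were higher and Adam17, Col12a1, Col7a1 and Col10a1 lower in the knockout of each of the 3 pairs. A call in this fit favours genes whose 3 pairs agree in sign, so that agreement is no further support.

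**Figure D5:**
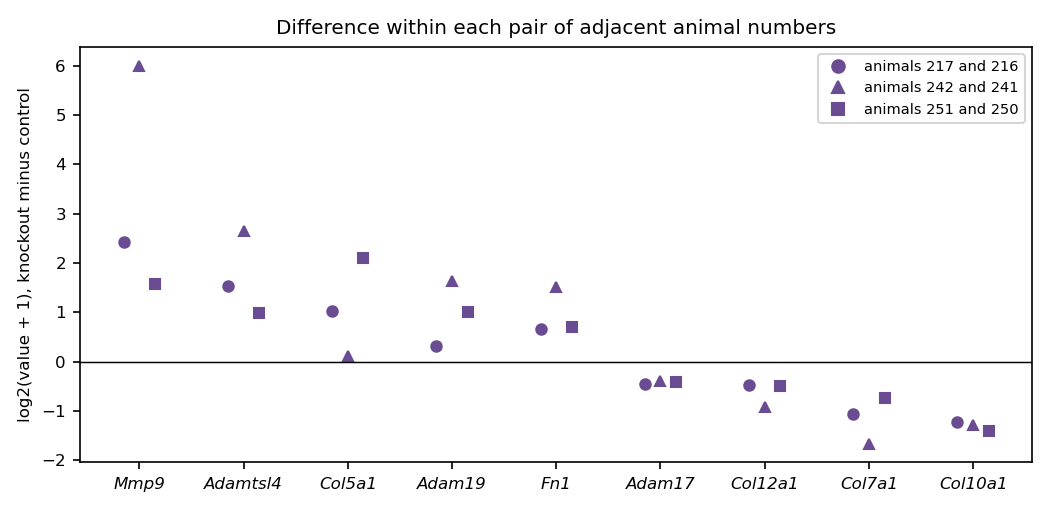
Difference in log2(normalized count + 1), knockout minus control, within each pair of adjacent animal numbers (1 symbol a pair) for the 9 members called only with the pairs as a block. The 3 pairs lie on the same side of 0 for each gene, closest together for Adam17 (−0.45, −0.40 and −0.41) and widest for Mmp9 (2.42, 5.99 and 1.58). Choosing genes by the block fit favours such agreement in sign.

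Genes that act with the set were counted from lists of the pathway, beside a background of 17.7% of all tested genes higher and 15.9% lower (1440 higher and 3065 lower of 12872 with library totals set equal). Among 3 inhibitors of these proteases, Timp3, which binds matrix and blocks ADAM17 and aggrecanases, rose to 1066, 2585 and 1349 normalized counts in knockouts, against 260, 234 and 116 in controls (3.01 ± 0.39; limma, adjusted p = 0.0011), and Timp2 did not pass. Of 19 genes of collagen folding and processing, 6 rose and 2 fell, with 1 and 2 when library totals were set equal and 3 rises without any 1 control. Plod2, a lysyl hydroxylase that prepares collagen for cross-links, rose by 3.35 ± 0.44, Sec24d, a coat protein of procollagen export, by 0.93 ± 0.21, and Crtap, a prolyl hydroxylase partner, was lower (−1.16 ± 0.25), with limma adjusted p of 0.0011, 0.0107 and 0.0103. Sec24d did not pass with library totals set equal (0.594, adjusted p = 0.0559). Of 21 laminin and basement membrane genes, 3 rose and 6 fell. With the block 5 rose and 8 fell, beside a background of 22.9% and 22.0% of all tested genes. Fras1, a basement membrane protein that holds the epidermis to the dermis before birth, fell to 175, 44.2 and 123 in knockouts, against 2196, 1282 and 1156 in controls (−3.90 ± 0.47; limma, adjusted p = 0.0008). Lama4 rose (2.58 ± 0.39) and the laminin receptor Dag1 fell (−1.11 ± 0.17; limma, adjusted p = 0.0023 and 0.0026).

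Of 16 receptors for matrix, 4 rose and 2 fell, with 2 rises without control 2 or control 3. Under the block 9 rose and 3 fell, beside 22.9% and 22.0% of all tested genes. The integrin chains Itgav (1.30 ± 0.21) and Itgb6 (2.78 ± 0.45), which pair to activate TGF-beta, rose, and the syndecan Sdc4 fell (−1.52 ± 0.25; limma, adjusted p = 0.0027, 0.0030 and 0.0028). In the plasminogen system, whose protease plasmin can activate MMPs, 5 of 6 genes rose and Plau fell. Without knockout 2 the counts were 3 and 0, and Plau also lost its call without control 1 or control 3 (limma, adjusted p = 0.121 and 0.128). Serpinb2, an inhibitor of plasminogen activators, had 18679, 45060 and 15915 normalized counts in knockouts and 1568, 1833 and 2113 in controls (3.70 ± 0.36; limma, adjusted p = 0.00033). The inhibitor Serpine2 (5.69 ± 0.59) and the activator Plat (3.4 ± 0.53) rose with it (limma, adjusted p = 0.00041 and 0.0023), and Serpine2 was 4.93 without control 3. Among the 6 genes of collagen uptake and lysosomal breakdown, 3 rose and 2 fell, with 1 fall without control 2 or control 3. The cathepsin Ctsl and the MMP inducer Bsg rose (2.54 ± 0.27 and 1.33 ± 0.21), and the collagen uptake receptor Mrc2 fell to 13.1, 8.51 and 8.87, against 102, 81.5 and 78.5 in controls (−3.00 ± 0.34; limma, adjusted p = 0.00049, 0.0024 and 0.00061).

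Of 9 partners that guide or activate ADAMs, 1 rose and 2 fell. Furin (0.77 ± 0.26), Tspan15 (−1.36 ± 0.45) and Rhbdf1 (−0.79 ± 0.19) were close to the threshold (limma, adjusted p = 0.0470, 0.0462 and 0.0159). Leaving out any 1 of the controls lost all 3 calls (adjusted p = 0.0536 to 0.160), and with library totals set equal the split was 0 and 5. Of the 15 surface proteins released by Adam17 or Adam10 that were tested, 8 rose and 2 fell, with 6 and 2 when library totals were set equal. Epgn, Areg and Ereg, ligands of the EGF receptor, had the smallest adjusted p of these (8.09 ± 0.63, 5.19 ± 0.51 and 4.49 ± 0.51; limma, adjusted p = 0.00012, 0.00033 and 0.00061). The Epgn value was 7.31 without knockout 2, that of Areg 5.80 without knockout 1 and that of Ereg 5.10 without knockout 3.

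Promoter windows were also searched for 2 motifs, since MMP genes are textbook targets of the factor AP-1. RefSeq promoters were matched for 40 of the 57 members. The AP-1 element TGANTCA, read on both strands, was in 4 of the 40 (10%), against 8.97% of all 27025 genes with a promoter in the table. The matches are shown with 11 bases on each side and the element in capitals, on GRCm38.p6.
Mmp13, chr9:7272468-7272496, plus strand, 35 bases before the start: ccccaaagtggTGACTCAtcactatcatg
Col6a1, chr10:76726117-76726145, minus strand, 90 bases before the start: tgctgatgctgTGACTCActcagctttga
Adam19, chr11:46055842-46055870, plus strand, 131 bases before the start: tgtccttcaccTGAGTCAgcgatgctccc
Adam1b, chr5:121503398-121503426, minus strand, 20 bases after the start: gtggctcctgcTGAGTCAggtacagtcaa
Of these 4 genes only Col6a1 passed the test between groups. The amino acid response core TGATGNAA was in 0 of the 40 and in 4.51% of all genes.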

How the data were processed

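Per the labels' protocols, RNA from separated epidermis was made into TruSeq libraries. The authors deposited a signal of normalized counts per gene, at or above 0, for 12894 Ensembl IDs in 6 libraries, each read here as 1 animal from its title number. The submitters' processing notes name mm39, Partek 9.0.20.0202 and TopHat2 2.1.0 without a role. How values were normalized, counted and assigned to strands is not given in the sources used. Low values of each library were multiples of 1 step, which gave estimated reads, but between 80.4 and 83.5% of values up to 20 reads were whole within 0.02, too few to treat the values as whole reads in a count test. Intervals on reads cover counting error only.

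Symbols were found for 12771 IDs. Exon lengths and neighbours come from a GRCm38 annotation, used for no coordinates of the files. By that annotation 20 members share exon bases with another gene, 8 of them with a gene of the table.

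Genes above 1 in at least 3 libraries (12872) were tested as log2(value + 1) with limma 3.58.1 in R 4.3.3 (eBayes with a mean-variance trend), two-sided, adjusted over all tested genes at 0.05; fold changes on this scale understate low genes. With 3 against 3 libraries an exact permutation test of 1 gene cannot go below p = 0.1, so none was used for calls. The fit was tested on simulated data.

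Adjacent animal numbers (216 with 217, 241 with 242, 250 with 251) were checked as pairs: deviations from group means correlated by 0.367, 0.228 and 0.362 within pairs and by −0.281 to −0.072 otherwise, so a replicate block was run. Subtracting group means makes the values of 1 library against the other group nearly offset each other. The negative values therefore add no support beyond the positive ones. The pairing rests on title numbers and the data, not on a stated litter. The members, lists and tests were chosen with earlier results of these data known. Values in every library are given for members past the threshold and at least 2-fold changed, and for the 10 with the highest mean; other members were named to fill their role group, after their values were seen. From each list of partner genes up to 3 were named by smallest adjusted p; Timp2, Plau and the marker genes were named after their values were seen. Protein sequences were not used here.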

Additional observations from a re-analysis of the deposited data

How the results depend on the processing

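Of the 24 members past the threshold, 10 stayed past it in all 16 other settings: Adam8, Adam9, Adam12, Adamts1, Adamts5, Adamts9, Adamts14, Col1a2, Col26a1 and Col4a5. None of the 24 changed sign in any setting. Counts of members higher and lower, 16 and 8 as reported, were 17 and 8 with a pseudocount of 0.5, 15 and 8 with a pseudocount of 5 or a filter of 10, 13 and 11 with library totals set equal, 19 and 9 with quantile normalization, and 21 and 12 with the replicate block. Leaving out 1 library gave 11 to 21 members higher and 6 to 10 lower, the same for those at least 2-fold changed, and 1512 to 2342 genes higher and 1121 to 2167 lower over all genes, against 2279 and 2049 as reported. With library totals set equal, 1440 genes were higher and 3065 lower, the split by direction moving with the scale of the libraries. With only the libraries whose Xist was near 0, which sets knockout 1 alone against 3 controls, 15 members were higher and 4 lower, all at least 2-fold, and 1265 and 1220 genes in all. That fit has fewer samples and assumes that the lone knockout varies like the controls. It lost Col1a1, Col3a1, Col6a1, Col6a2, Col6a3, Col4a6, Col8a1, Mmp15, Adamtsl1 and Adamtsl5. Quantile normalization reversed the log2 difference of 3 keratinocyte genes near 0 or with high counts, Cdh1 (−0.022), Perp (−0.85) and Dsc3 (−0.63); the cause was not tested. The depth limits Mmp8, Mmp9, Mmp13, Mmp19, Col26a1 and the smaller collagen VI chains, which had a few reads or none in some libraries. No sample's label names a batch, so none could be fitted.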
